A study of Homo sapiens with 12 samples.

Results

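The HOX genes were examined as a group: the 38 listed genes of the clusters HOXA, HOXB, HOXC and HOXD, and every region of an H3K9ac table that lay in a cluster, from its first to its last listed gene with 10 kb added on each side. The rule used positions alone and found 33 of the 47648 regions: 14 in HOXA, 5 in HOXB, 10 in HOXC and 4 in HOXD. The cells were MOLM-13, an established human line from an acute myeloid leukaemia, which carries a KMT2A-MLLT3 fusion gene. H3K9ac, the acetylation of lysine 9 of histone H3 found at active promoters and enhancers, was mapped by ChIP-seq. There were 3 libraries of DMSO (solvent) cells and 3 of cells treated with WM-1119, an inhibitor of the lysine acetyltransferase KAT6A, at 4 µM for 4 days. Both groups are the same cell line with no other agent named, and the question was how KAT6A inhibition alters chromatin in these cells. The labels do not say whether libraries came from separate cultures, so the tests measure the spread between libraries, which may be technical.

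HOX genes encode homeodomain transcription factors and stand in clusters in which neighbouring genes are often active together. In blood, HOXA genes are active in stem and progenitor cells and are switched off as cells mature, while KMT2A fusion proteins keep HOXA9, HOXA10 and neighbouring genes on. KAT6A is itself a known activator of HOX genes in the embryo. Silent HOX clusters are commonly held by Polycomb complexes and lack histone acetylation.

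Signal is given as CPM, in which the reads of a library in the 47648 regions are scaled to a sum of 1000000, so a change over the whole genome cannot be seen, and in bulk cells fewer marked cells and less mark per cell cannot be told apart. The libraries held 719329 to 12705349 reads in regions. The limit that 0 reads allow (3 reads) was 4.17 CPM in the shallowest library, DMSO replicate 1, and 0.236 CPM in the deepest, WM-1119 replicate 3. Such limits cover counting error only. DMSO replicates 1 and 2 stood apart: regions weaker than the median took 8.95% and 7.19% of their CPM, against 2.19% to 3.35% in the other 4 libraries. Changes are also given without both of them where that turned the direction. This leaves DMSO replicate 3 as the only DMSO library, so such values rest on it alone.

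HOXA carried nearly all of the HOX signal. Summed over its regions it held 1166, 1384 and 1631 CPM in DMSO replicates 1, 2 and 3 and 1446, 1532 and 1807 CPM in WM-1119 replicates 1, 2 and 3. That was 93.7% to 98.0% of the signal of the 4 clusters in each library, and the 2 groups overlapped. HOXB held 10.96 to 24.6 CPM over the 6 libraries, HOXC 16.7 to 46.2 CPM and HOXD 4.95 to 12.5 CPM. Regions covered 40.2% of the HOXA window and 1.30%, 3.34% and 1.19% of the HOXB, HOXC and HOXD windows. Per kb of covered length the mean was 31.0 CPM in HOXA and 6.59, 6.67 and 6.19 CPM in HOXB, HOXC and HOXD. The HOXA density was 2.99 to 10.8 times the background of its chromosome, taken as the 10th percentile of density among its regions wider than 500 bp and no wider than 1200 bp. In the other clusters that ratio was 1.05 to 1.62, and their order changed with the library. HOXA is therefore called the active cluster below and the others silent, a description of the values and not of RNA, which was not measured.

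**Figure D1:**
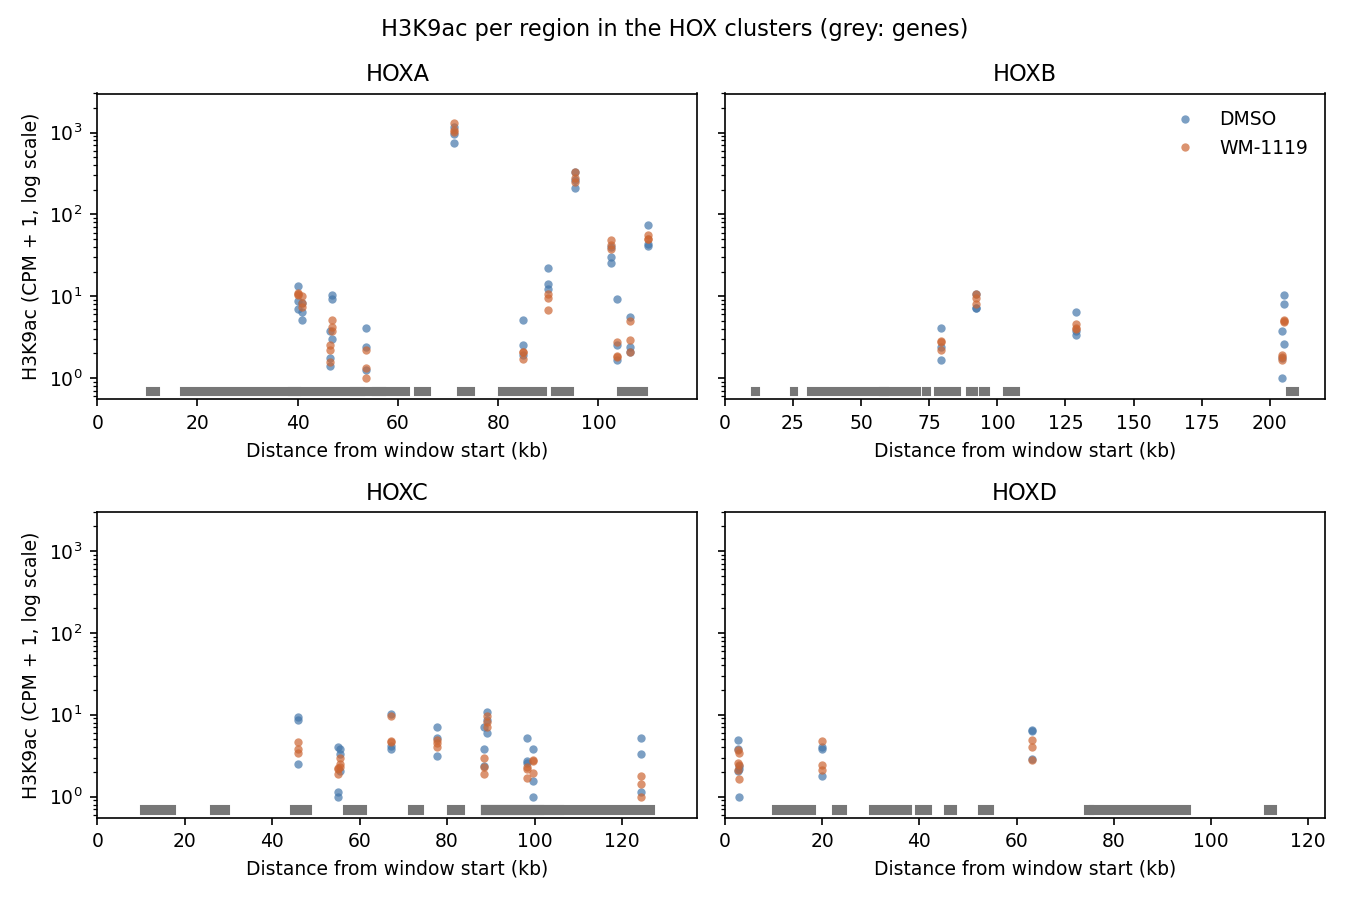
H3K9ac of the regions, 1 of HOXA left out (CPM + 1, log axis) by distance from the start of each cluster's window in kb, 1 point per library, with listed genes as grey bars. HOXA regions reach 1310 CPM, while no region of HOXB, HOXC or HOXD has a mean above 7.90 CPM.

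Of the 38 genes 13 had a region over the gene body, 7 in HOXA, 2 in HOXB, 4 in HOXC and none in HOXD, and 25 had none. Regions averaging 10 CPM or more lay over 6 genes only: HOXA3, HOXA7, HOXA9, HOXA10, HOXA11 and HOXA13. HOXA3 counts here because its annotated body, at chromosome 7 position 27107010 to 27152583, spans HOXA4 to HOXA6 and reaches into the strongest region from a far start site. All 33 regions were read as they lay along the chromosomes of the hg38 build, and 27 of them had a mean under 10 CPM.

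In HOXA, no region touched HOXA2, a gene of hindbrain and neural crest patterning, or the near part of HOXA3. Around HOXA4, regions at 27130065 to 27130822 and 27130944 to 27131485 had means of 9.21 and 6.58 CPM, above the medians of 6.98 and 4.69 CPM over regions of like width, where neither was over 25% wider than the other. Between HOXA4 and HOXA6 lay 3 weak regions with means of 1.04 to 4.95 CPM. No region touched HOXA5, a tumour suppressor gene in several tissues, or HOXA6, and the nearest lay 206 and 232 bp away.

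Then came a single region of 27.1 kb, at 27148006 to 27175073, over HOXA7, HOXA9, the microRNA gene MIR196B and the near part of HOXA10. It was the second widest and the fifth strongest of all 47648 regions. HOXA9 drives self-renewal of leukaemic progenitors, and HOXA7 and HOXA10 act beside it in early myeloid cells. The region held 747, 956 and 1175 CPM in DMSO replicates 1, 2 and 3 and 1014, 1087 and 1310 CPM in WM-1119 replicates 1, 2 and 3. The third replicate was the highest of each group, and DMSO replicate 3 exceeded 2 of the 3 WM-1119 libraries. Its density of 38.7 CPM per kb was above that of 95.2% of regions, so its total rests on width more than on height.

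After 1 weak region, with a mean of 1.59 CPM, the signal dropped before the far start of HOXA10. There a region at 27179627 to 27181086 held 20.9, 13.1 and 11.4 CPM in DMSO replicates 1, 2 and 3 and 8.59, 5.80 and 9.68 CPM in WM-1119 replicates 1, 2 and 3. All WM-1119 libraries were below all DMSO libraries. Over HOXA11, which acts in limb and uterus, and its antisense gene HOXA11-AS, a region of 8.57 kb at 27181428 to 27190000 held 210, 263 and 328 CPM with DMSO and 249, 280 and 330 CPM with WM-1119 replicates 1, 2 and 3. It ranked 214 of all regions by strength, and the groups overlapped. Between HOXA11 and HOXA13, over no annotated gene, the region at 27191947 to 27193814 held 29.2, 38.5 and 24.7 CPM with DMSO and 47.3, 41.1 and 36.5 CPM with WM-1119. DMSO replicate 2 lay within the WM-1119 range. A pair of weak regions followed, with means of 2.33 and 2.34 CPM.

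The last region of the cluster, at 27198256 to 27202110, lay over HOXA13, a gene of distal limb and hindgut patterning, and over the non-coding gene HOTTIP, which is known to keep the posterior HOXA genes active. It held 72.3, 42.4 and 40.1 CPM with DMSO and 49.3, 49.0 and 54.9 CPM with WM-1119 replicates 1, 2 and 3. DMSO replicate 1 was the highest library. Only 4.30% of the 1720 regions of like width were weaker.

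**Figure D2:**
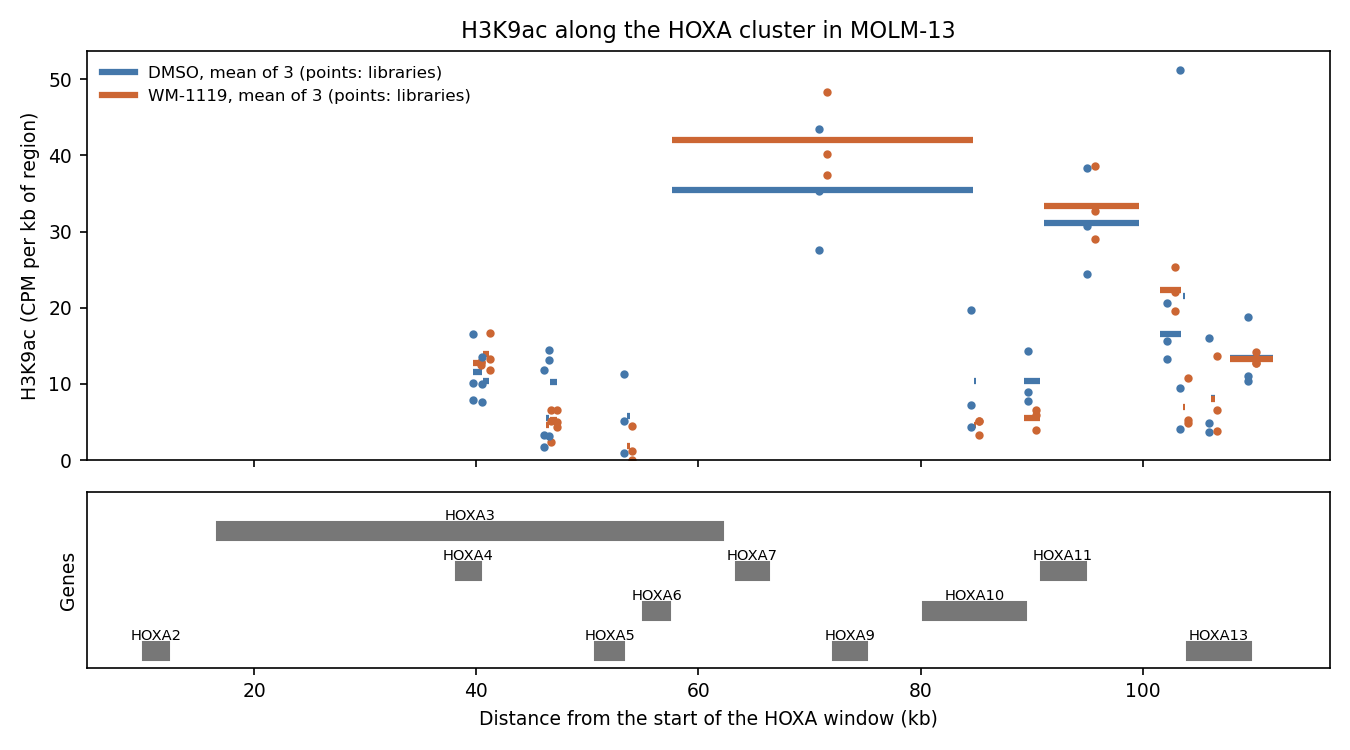
H3K9ac density (CPM per kb of region) along the HOXA window by distance from its start in kb: horizontal bars are group means over the extent of each of 13 regions, points single libraries, and grey boxes the listed genes. The 27.1 kb and 8.57 kb regions over HOXA7 to HOXA11 stand highest, and points of the narrowest regions rest on few reads.

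The silent clusters held short, weak regions. In HOXB the strongest, at chromosome 17 position 48610335 to 48611342 over HOXB7, had a mean of 7.90 CPM, with 9.73, 6.16 and 6.28 CPM with DMSO and 8.59, 9.70 and 6.93 CPM with WM-1119 replicates 1, 2 and 3. The groups overlapped. HOXB6 had a region of 1.65 CPM. HOXB2, HOXB3, HOXB4 and HOXB5, genes of blood stem and progenitor cells in which HOXB4 promotes self-renewal, had none: the first 79.1 kb of the window held no region. The other 3 HOXB regions lay at the non-coding gene LINC02086 and at PRAC2, next to HOXB13, with means of 0.983 to 4.96 CPM.

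In HOXC the strongest region, at chromosome 12 position 54017603 to 54018470, lay near the shared start of HOXC4, HOXC5 and HOXC6. It held 9.73, 7.70 and 4.95 CPM with DMSO and 7.04, 8.70 and 6.14 CPM with WM-1119 replicates 1, 2 and 3, and the groups overlapped. A region over HOXC11 and HOTAIR, a non-coding gene that binds Polycomb proteins, had a mean of 4.41 CPM. HOXC8, HOXC9, HOXC10, HOXC12 and HOXC13 had none. In HOXD no listed gene had a region. Its 4 regions, 2 of them over EVX2, had means of 1.18 to 3.61 CPM. The strongest, at chromosome 2 position 176140473 to 176140952, held 5.56, 5.39 and 1.87 CPM with DMSO and 3.96, 1.80 and 3.07 CPM with WM-1119 replicates 1, 2 and 3. DMSO replicates 1 and 2 were above all other libraries there, and its log2 change of -0.36 turned to 0.42 without them. Genes that flank the clusters ranged widely. Around HOXC, SMUG1 had a mean of 8.06 CPM, about that of the strongest silent HOX region, CALCOCO1 15.2 CPM and CBX5 293 CPM. Around HOXD, MTX2 and LNPK had 36.9 and 47.9 CPM. Around HOXA, SKAP2, HIBADH and SNX10 had 54.8, 72.5 and 79.3 CPM, while EVX1 had no region within 1 kb of its ends. Beside HOXB, SKAP1 and TTLL6 had none either, and PRAC1 shared the PRAC2 region of 4.96 CPM.

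Promoter sequences, from 250 bases before to 50 after the start, were at hand for 20 of the 38 genes in 27 windows (RefSeq, GRCh38.p14). Of these windows 10 overlapped a region, all in HOXA. They ran from HOXA4 to HOXA13, and included that of HOXA6, of which only the end towards HOXA7 lay in the 27.1 kb region. All 8 HOXD windows lacked a region although they held a median of 24.5 CG dinucleotides, the sites that the CXXC domain of KMT2A binds when unmethylated. Of all promoters with at least 22 CG, the HOX median, 79.2% overlapped a region, against 44.4% of all 35116 promoters. The next 4 sequences are shown because they set CG content beside signal. HOXA11 carries the second strongest HOX region on 13 CG, HOXA9 lies in the strongest with 22, HOXA4 has a weak region with 27, and HOXD1 has none with 36. These 4 were picked, and their order does not hold for the whole set. The 9 HOX windows in regions averaging 10 CPM or more had a median of 25 CG, against 17 in the 18 others. On the minus strand, HOXA9 lies at chr7:27165488-27165787, HOXA11 at chr7:27185183-27185482 and HOXA4 at chr7:27130708-27131007. On the plus strand, HOXD1 lies at chr2:176188418-176188717. Each reads 5′ to 3′, with CG in capitals.
HOXA9: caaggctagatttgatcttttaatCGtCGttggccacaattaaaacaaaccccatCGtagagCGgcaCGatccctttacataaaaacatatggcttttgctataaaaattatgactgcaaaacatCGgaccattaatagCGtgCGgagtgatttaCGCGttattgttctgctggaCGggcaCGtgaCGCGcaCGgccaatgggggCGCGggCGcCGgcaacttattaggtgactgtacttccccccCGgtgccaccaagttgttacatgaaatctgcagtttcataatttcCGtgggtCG
HOXA11: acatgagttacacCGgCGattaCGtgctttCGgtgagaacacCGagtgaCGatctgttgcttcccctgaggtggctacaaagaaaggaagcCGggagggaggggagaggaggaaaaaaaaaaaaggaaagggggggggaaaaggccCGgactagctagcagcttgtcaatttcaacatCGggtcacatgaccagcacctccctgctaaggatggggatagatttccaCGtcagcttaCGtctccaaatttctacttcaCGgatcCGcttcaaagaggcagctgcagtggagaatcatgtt
HOXA4: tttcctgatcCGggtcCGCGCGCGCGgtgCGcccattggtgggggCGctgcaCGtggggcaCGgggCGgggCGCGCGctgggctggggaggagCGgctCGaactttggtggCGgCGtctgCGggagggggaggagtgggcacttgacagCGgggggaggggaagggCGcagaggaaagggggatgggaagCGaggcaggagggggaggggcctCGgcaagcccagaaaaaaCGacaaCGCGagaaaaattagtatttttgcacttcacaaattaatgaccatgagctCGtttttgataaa
HOXD1: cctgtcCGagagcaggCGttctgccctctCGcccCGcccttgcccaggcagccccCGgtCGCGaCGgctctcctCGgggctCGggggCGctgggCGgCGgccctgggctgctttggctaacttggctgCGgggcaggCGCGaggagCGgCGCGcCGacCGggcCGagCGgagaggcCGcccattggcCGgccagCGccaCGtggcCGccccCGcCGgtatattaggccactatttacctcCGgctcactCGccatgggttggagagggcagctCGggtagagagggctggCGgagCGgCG

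3 motifs were searched on both strands. CCAAT, the box bound by NF-Y, was present in 18 of the 27 HOX windows (66.7%), against 34.6% of all promoters. The TATA box, searched as TATAAA, was in 5 (18.5%, against 11.5%). A PBX and HOX motif, searched as TGATTNAT, was in 2 (7.41%, against 2.82%). Of the 9 windows in regions averaging 10 CPM or more, 7 had CCAAT and 4 had TATAAA. Of the 18 other windows, 11 had CCAAT and 1 had TATAAA. HOXC4 and HOXC5 share 1 window, counted for each gene, and HOXA3 has several, so the windows are not all separate promoters. These are letter matches only.

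MicroRNA genes of the clusters followed the same division. MIR196B lay inside the 27.1 kb HOXA region. MIR196A1 in HOXB and MIR196A2 in HOXC, whose 5p mature sequence is the same, lay 14624 and 3664 bp from the nearest region. MIR10A in HOXB, MIR10B in HOXD and MIR615 in HOXC lay 17649, 9351 and 5238 bp away. The miR-196 family targets HOX transcripts. Its 5p members share the seed (bases 2 to 8, in capitals), so this seed is encoded in 1 marked and 2 unmarked places, while miR-10a-5p has another. Mature sequences are from RefSeq (GRCh38.p14), 5′ to 3′.
hsa-miR-196b-5p: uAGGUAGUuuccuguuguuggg
hsa-miR-196a-5p: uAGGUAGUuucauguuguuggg
hsa-miR-10a-5p: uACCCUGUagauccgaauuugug

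WM-1119 changed no HOX region past the threshold. Of the 32 HOX regions averaging 1 CPM or more, 0 were called higher and 0 lower by limma (Benjamini-Hochberg adjusted p under 0.05 over 44763 regions), where 0.0603% of all regions were called, all lower. At an unadjusted p under 0.05, 1 HOX region was lower and 0 higher, beside 10.8% and 2.58% of all regions. By edgeR on the recovered reads of 5 libraries 0 HOX regions were called and 0 had such a p, where 0 of all 44763 were called. At such a p edgeR had 353 of all regions higher and 1738 lower. Limma log2 changes were above 0 in 15 HOX regions and below 0 in 17. Their median was -0.04, while the median of all regions was -0.47. They are on the log2(CPM + 1) scale, which understates weak regions. Without DMSO replicate 3, which leaves the 2 DMSO libraries with high background, 7 HOX regions passed. The 27.1 kb region was higher and 6 weaker ones lower, and 5.38% and 38.5% of all regions were called higher and lower there.

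The 27.1 kb region averaged 959 ± 214 CPM with DMSO and 1137 ± 154 CPM with WM-1119 (SD over 3 libraries each). On the log2 scale it changed by 0.26 ± 0.13 (SE, adjusted p = 0.375 by limma). Regions within 1.5 times of its strength, 10 in number, had a median of 0.24. It passed without DMSO replicate 3 (limma adjusted p = 0.0152, log2 change 0.42), turned to -0.06 without DMSO replicates 1 and 2, and to -0.04 with quantile normalization. With median centring it was 1.03, and in edgeR 0.63, neither past the threshold. The HOXA11 region changed by 0.11 ± 0.15 (SE; limma adjusted p = 0.642), beside a median of 0.26 over regions of like strength. It was at -0.21 without DMSO replicates 1 and 2 and at -0.05 without DMSO replicate 1 alone. The HOXA13 region changed by 0.04 ± 0.20 (SE), and was at -0.08 without DMSO replicate 2, -0.12 without DMSO replicate 3, -0.02 without WM-1119 replicate 3 and -0.09 with quantile normalization. The region between HOXA11 and HOXA13 changed by 0.44 ± 0.22 (SE; limma adjusted p = 0.375).

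The 1 region with an unadjusted p under 0.05 was the one at the far start of HOXA10, called HOXA_27179627 by cluster and start. It averaged 15.1 ± 5.05 CPM with DMSO and 8.02 ± 2.0 CPM with WM-1119 (SD over 3 libraries each). On the log2 scale it changed by -0.82 ± 0.38 (SE, adjusted p = 0.363 by limma). Regions of like strength had a median of -0.49, and in 8.56% of regions averaging 10 CPM or more the WM-1119 libraries lay wholly below the DMSO libraries. Most of those regions were stronger, and the share was not taken at like strength. Of the regions of 10 to 20 CPM, 15.8% had a log2 change above 0. Without DMSO replicate 3 the region at the far start of HOXA10 passed (limma adjusted p = 0.0232). With a background subtracted the values were 14.3, 3.98 and 7.82 in DMSO and 2.68, 0 and 5.44 in WM-1119 replicates 1, 2 and 3, in CPM, and the groups overlapped. On those values the log2 change was -1.61 (limma adjusted p = 0.358). Scaling also moved it: the log2 change was -0.30 with quantile normalization, -0.21 in edgeR, -0.05 with median centring and -0.48 without DMSO replicates 1 and 2. Another HOX region had groups that did not overlap, the weak one of HOXC at 54027088, also lower. For all 32 tested HOX regions that is 2 lower and 0 higher, beside 13.2% and 3.76% of all regions.

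**Figure D3:**
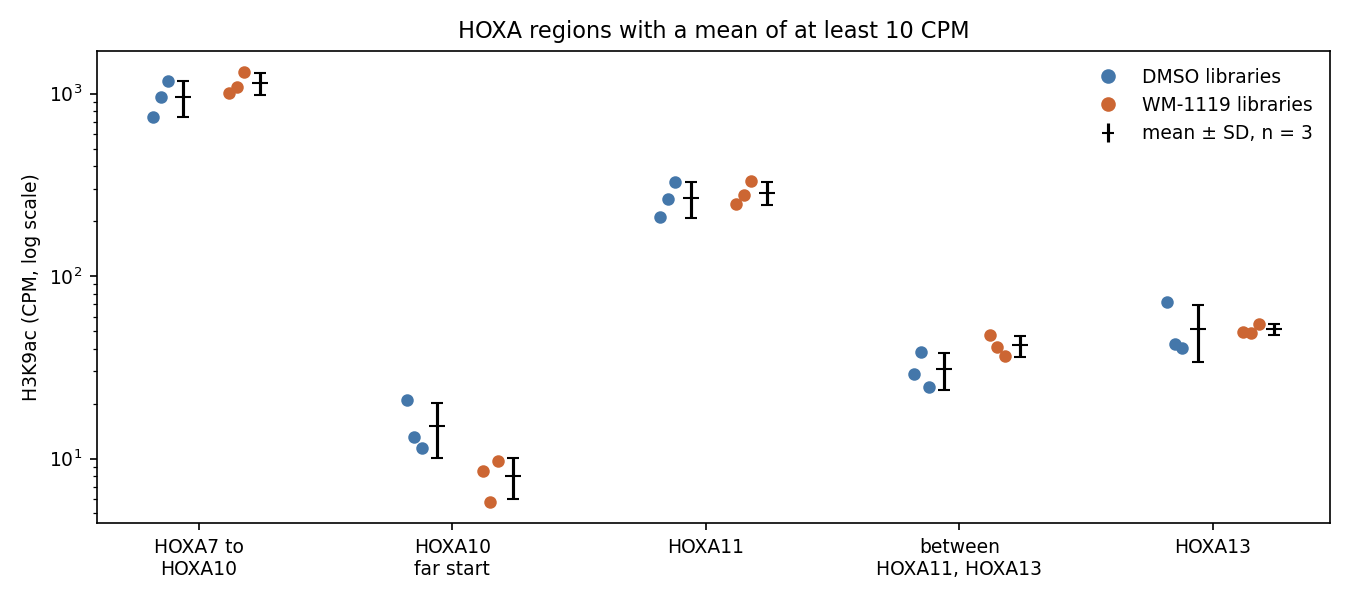
H3K9ac (CPM, log axis) in 5 HOXA regions averaging 10 CPM or more, 1 point per library, with mean ± SD (n = 3) in black. The groups overlap in all but the far start of HOXA10, where WM-1119 libraries held 5.80 to 9.68 CPM and DMSO libraries 11.4 to 20.9 CPM.

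Summed over clusters the differences were smaller than the spread of the DMSO libraries. HOXA averaged 1394 ± 233 CPM with DMSO and 1595 ± 189 CPM with WM-1119 (SD over 3 libraries each). On the log2 scale it changed by 0.20 (exact permutation, two-sided p = 0.4, and 1 adjusted over the 4 clusters). HOXB changed by -0.05, HOXC by -0.29 and HOXD by -0.15, with exact permutation p of 1, 0.6 and 0.8. With 3 libraries against 3 the smallest possible p is 0.1. DMSO replicate 3 was the lowest library in HOXB, HOXC and HOXD. Without DMSO replicates 1 and 2, which leaves replicate 3 as the only DMSO library, all 4 turned, to -0.04, 0.71, 0.64 and 0.74. The ratio of HOXA to HOXB, which needs no scaling, changed by 0.25 on the log2 scale (exact permutation p = 0.6) and turned to -0.75 without those 2 libraries. The ratio of HOXA and HOXC, the 2 clusters of higher density by a narrow margin, to HOXB and HOXD changed by 0.27 (exact permutation p = 0.6) and turned to -0.75. HOXA against the 3 silent clusters together, a ratio added after the values were seen, changed by 0.39 (exact permutation p = 0.6), turned to -0.72 without those 2 libraries and ran from 0.08 to 0.94 with 1 library left out. It was 15.0-, 16.6- and 50.02-fold in DMSO and 25.3-, 28.0- and 39.7-fold in WM-1119 replicates 1, 2 and 3.

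Within HOXA most of the signal lay in the 27.1 kb region in every library. The 27.1 kb region held 64.0%, 69.1% and 72.0% of the cluster in DMSO and 70.1%, 70.9% and 72.5% in WM-1119, a difference of 2.81 percentage points (exact permutation p = 0.4). DMSO replicate 1 was the lowest, and the difference was 0.633 without it and -0.846 without DMSO replicates 1 and 2. The far start of HOXA10 held 1.79%, 0.946% and 0.696% in DMSO and 0.594%, 0.379% and 0.536% in WM-1119, with no overlap, and HOXA13 2.46% to 6.20% over the 6 libraries. The ratio of the HOXA11 region to the 27.1 kb region was 0.281, 0.276 and 0.279 in DMSO and 0.246, 0.258 and 0.252 in WM-1119 replicates 1, 2 and 3, so all WM-1119 libraries were below all DMSO libraries. The log2 ratio changed by -0.15 ± 0.02 (SE; two-sided exact permutation p = 0.1, the smallest possible), a ratio 0.903 times that of DMSO. This ratio was picked after its values were seen, out of 15 pairs of the 6 HOXA regions. Of the 15, 6 had groups that did not overlap, 5 of them with the far start of HOXA10, and the smallest p adjusted over the pairs was 0.25. Over the whole genome, 17.6% of 409 neighbouring pairs of regions of at least 100 CPM, this pair among them, had groups that did not overlap in such a ratio. The change was -0.14 with background subtracted and -0.16 to -0.13 with any 1 library left out. As a share of the reads of both regions, HOXA11 took 21.8% in DMSO replicate 3 (exact 95% interval 21.1% to 22.6%) and 20.1% in WM-1119 replicate 3 (19.6% to 20.7%). These intervals cover counting error only and compare those libraries, not the treatments. DMSO replicate 1, with 151 reads in the HOXA11 region, had an interval of 18.9% to 25.2%, which covers all WM-1119 values.

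The silent clusters were set beside other weak regions. Their 19 regions summed to 77.9, 83.2 and 32.6 CPM with DMSO and 57.2, 54.7 and 45.5 CPM with WM-1119 replicates 1, 2 and 3. DMSO replicate 3 was the lowest, with 244 reads and an exact Poisson interval of 28.7 to 37.0 CPM, for counting error only. Relative to the background of their chromosomes they stood at 1.16, 1.26 and 1.12 in DMSO and at 1.57, 1.49 and 1.42 in WM-1119. All other regions with a mean of 1 to 10 CPM moved the other way, from 1.97, 1.69 and 1.55 to 1.53, 1.36 and 1.34. The silent HOX regions over those others changed by 0.64 on the log2 scale, from 0.686 ± 0.0857 to 1.06 ± 0.0381 (SD, n = 3 each; two-sided exact permutation p = 0.1, the smallest possible). This measure was added after the values were seen. It was 0.53 to 0.70 with any 1 library left out and 0.55 without DMSO replicates 1 and 2. Of the 18 tested regions of HOXB, HOXC and HOXD 7 had a log2 change above 0, with a median of -0.10, and over all tested regions with a mean of 1 to 10 CPM 6.35% had one, with a median of -0.65. Weak regions of the active cluster gave like counts: of the 8 in HOXA 3 had a change above 0, with a median of -0.31, and 7 lay above the median of regions of like strength, beside 15 of the 18. Scaled to the total of such weak regions, 6 of the 18 lay wholly higher in WM-1119, beside 5.01% of all. In which libraries each region was first called is not stated in the labels, and its part in this difference was not tested.

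**Figure D4:**
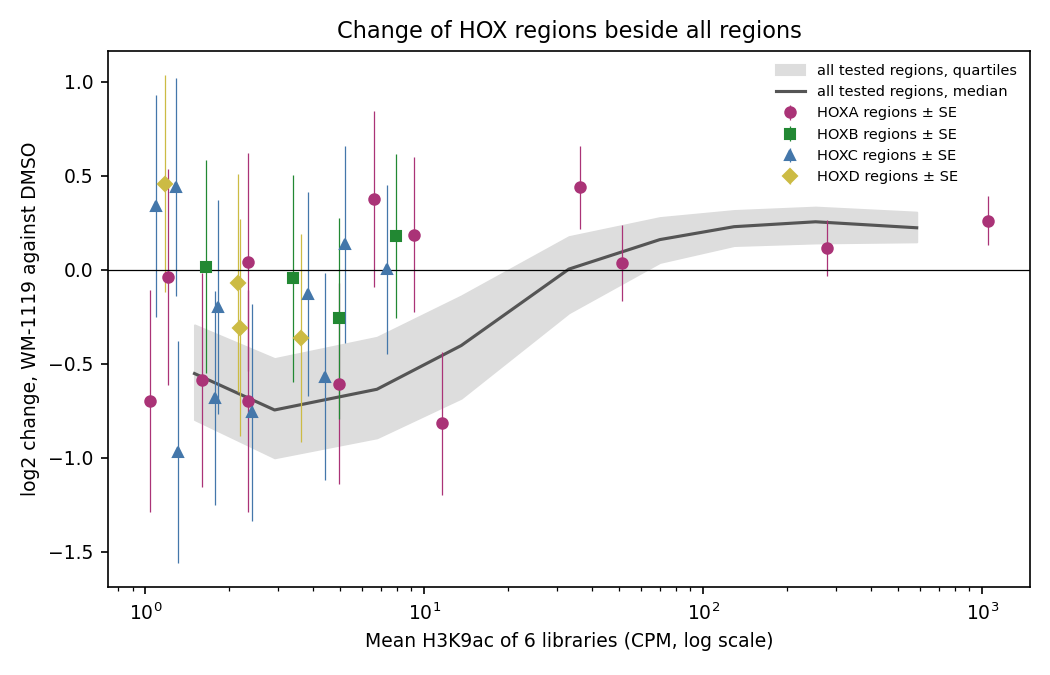
Log2 change with WM-1119 (± SE) of 31 of the 32 tested HOX regions against their mean CPM (log axis), with the median (line) and quartiles (grey) of all tested regions by strength. The strongest HOXA region, at 0.26, lies to the right of the grey band, which ends at 582 CPM. Its change is within the quartiles of all tested regions of at least 500 CPM, 0.15 to 0.31. The HOXA11 region, at 0.11, lies below the band. Of the 18 silent HOX regions 15 lie above the median of regions of like strength.

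**Figure D5:**
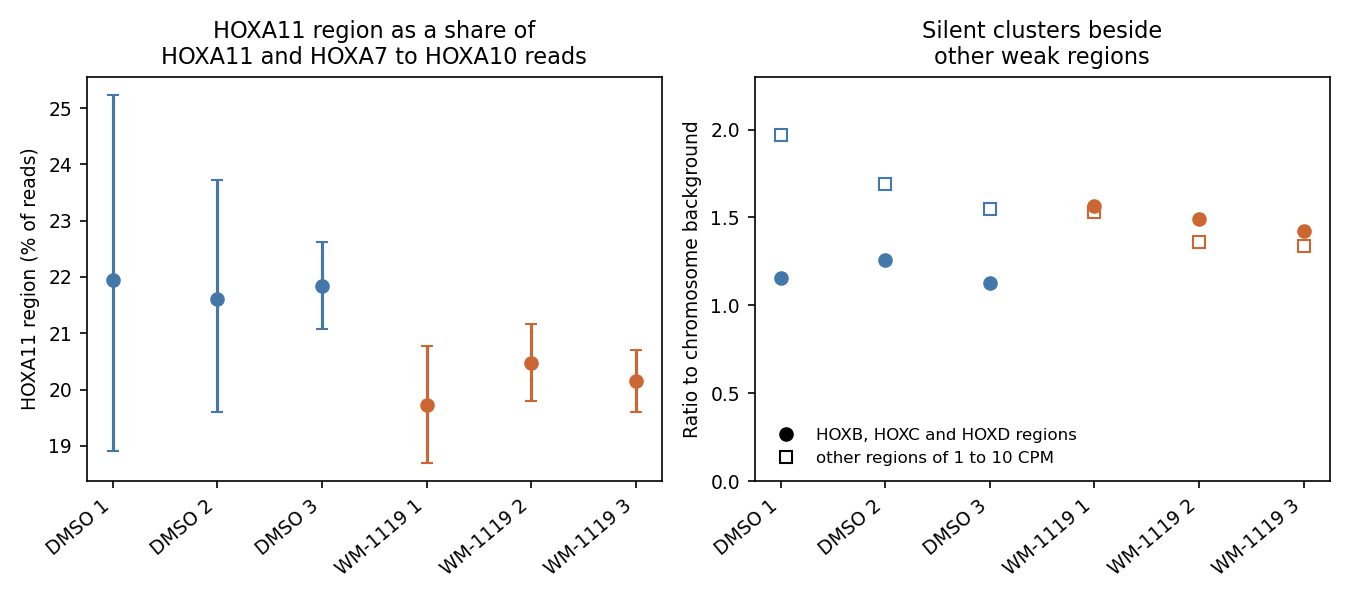
Left, reads of the HOXA11 region as a percent of its reads and those of the 27.1 kb region, with exact 95% intervals for counting error only, by library. Right, CPM of the silent clusters' regions (filled) and of other regions of 1 to 10 CPM (open) relative to chromosome background: the filled points rise from at most 1.26 in DMSO to at least 1.42 in WM-1119, while the open ones fall.

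Genes that act on or with HOX genes were given by a list of 21: KMT2A and its partners MLLT3, MEN1, PSIP1 and DOT1L, the regulators KMT2D, KDM6A, EZH2, SUZ12, EED and CTCF, the HOX cofactors of the MEIS, PKNOX and PBX families, and the CDX genes, which activate HOX genes in the embryo. Of these 19 had a region within 1 kb of either end of the gene, the strongest being taken, and were tested. Such a region need not lie at the start of the gene. Limma called 0 higher and 0 lower, 14 had a log2 change above 0, and the median was 0.22. Strong regions shared this: over all regions of at least 50 CPM the medians by strength were 0.16 to 0.26, with 81.2% to 97.4% above 0. At an unadjusted p under 0.05 by limma there were 3, all higher, beside 2.58% of all regions, most of which were weaker. In a limma fit of regions averaging 10 CPM or more alone, 901 of all 14323 were higher at such a p. The 3 are named after their values were seen. EZH2, the Polycomb methyltransferase gene, was at 0.34, MEIS2 at 0.43 and PBX3 at 0.35 (log2 change). MEIS1 and PBX3, the cofactor genes most tied to HOXA9 in leukaemia, had means of 687 and 726 CPM. CDX1 and CDX4 had no region at either end, and that of CDX2 had a mean of 21.9 CPM.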

How the data were processed

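H3K9ac libraries of MOLM-13 cells (3 DMSO, 3 WM-1119) were grouped and numbered by their titles; the 6 input samples were not analysed here. Tools listed in the submitters' processing notes are MACS2, Bowtie2, bedtools and SAMtools, with no version, and the build hg38. Region merging and duplicate removal are not stated there. The authors deposited 1 table named TPM, whose deposited values are CPM: dividing by 1 step per library made 100% of values up to 100 reads whole, to within 0.02 reads. WM-1119 replicate 2 has a step near a round value and was left out of the edgeR test.

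Regions averaging 1 CPM or more were fitted with limma 3.58.1 in R 4.3.3 (log2(CPM + 1), trend and robust, treatment only), and p-values adjusted by Benjamini-Hochberg over all. edgeR 4.0.16 (quasi-likelihood) was an alternative. Sums and ratios per library were compared by exact permutation of the 6 libraries. Python 3.11.15 was used with scipy 1.17.1, pandas 2.3.3, matplotlib 3.10.9 and numpy 2.4.6. Genes were placed by RefSeq GRCh38.p14; starts were taken as counted from 0. The background of a library and chromosome was the 10th percentile of density among regions wider than 500 bp and no wider than 1200 bp. The genes, lists and tests were chosen with earlier results of these data known. By rule, values in every library are given for HOX regions averaging 10 CPM or more and for the strongest of each cluster, and the flanking genes and the 5 most alike regions were named whatever their values, and the regulators as a list. On simulated data (200 changed of 43870 regions fitted, dispersion 0.05) limma found 13% of the 2-fold changes and 92% of the 4-fold changes, with 0 false calls. Changes were planted only in regions averaging 10 CPM or more, so they do not cover the 26 tested HOX regions of 1 to 10 CPM. The simulated libraries shared the same profile and lacked the high background of DMSO replicates 1 and 2. These rates need not carry over to the real libraries. Alternatives in scaling, filter, pseudocount, flank and libraries are given in the closing section. 1 HOXA region is not reported here singly, though it is part of the sums and counts.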

Additional observations from a re-analysis of the deposited data

How the results depend on the processing

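No HOX region was called under 16 of 17 alternatives in pseudocount, filter, scaling, replicate block, moderation, libraries, tool and background; with 1 library left out the count ran from 0 to 7. These alternatives did not all test the same HOX regions. The filter at 10 CPM tested 6 and background subtraction 18, against 32 in the main fit. Leaving out DMSO replicates 1 and 2 kept only DMSO replicate 3. Several alternatives called few regions of the whole table. Of all regions, 0 were called with edgeR, without DMSO replicate 2 and in limma without trend and robust, and 1 with quantile normalization. Where limma or edgeR called no HOX region, 0 to 13 HOX regions were higher at an unadjusted p under 0.05 and at most 1 lower. Of the 32 tested, 13 were higher with median centring, where 4369 of all 44763 regions were higher and 557 lower. With quantile normalization 6 were higher, where 1627 of all 44763 were higher and 1949 lower. Median centring moved the median log2 change of all regions from -0.47 to 0.30, and quantile normalization to 0.01. The replicate block called 112 regions of the whole table higher and 384 lower, and 0 of HOX. As a block the summed HOXA change kept its value of 0.20 (exact sign flips, p = 0.25, the smallest possible). The labels do not say whether equal numbers mark pairs. Same-numbered libraries deviated together with correlations of 0.22, 0.05 and 0.33, and number 2 did no better with itself than with number 1. With 3 libraries per group these correlations cannot settle whether the libraries were paired. The block changed no HOX call.

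Directions of the 4 sums depended on libraries and scaling. Without DMSO replicates 1 and 2 the log2 changes were -0.039 (HOXA), 0.71 (HOXB), 0.64 (HOXC) and 0.74 (HOXD), and the ratios of HOXA to HOXB, of the denser to the less dense clusters and of HOXA to the others turned to -0.75, -0.75 and -0.72, with the share of the 27.1 kb region at -0.846 percentage points. Quantile normalization gave -0.028, 0.72, 0.54 and 0.77 for the 4 sums, TMM scaling 0.67, 0.42, 0.18 and 0.32 for them, and background subtraction 0.35 for HOXB, 0.44 for HOXD, and -0.17 and -0.16 for the first 2 ratios. With 1 library left out the sums ran from 0.08 to 0.32 (HOXA), -0.43 to 0.15 (HOXB), -0.75 to -0.02 (HOXC) and -0.59 to 0.081 (HOXD), and the ratios from -0.045 to 0.75, -0.038 to 0.78 and 0.08 to 0.94. For single regions, quantile normalization turned HOXA_27148006 to -0.040, HOXA_27181428 to -0.11, HOXA_27198256 to -0.088 and HOXD_176140473 to 0.37. Omitting DMSO replicates 1 and 2 turned HOXA_27148006 to -0.056, HOXA_27181428 to -0.21 and HOXD_176140473 to 0.42. Median centring and edgeR gave 1.03 and 0.63 for HOXA_27148006, 0.89 and 0.47 for HOXA_27181428, 0.81 and 0.53 for HOXA_27198256, 1.21 and 0.88 for HOXA_27191947 and -0.045 and -0.21 for HOXA_27179627, which was at -0.30 with quantile normalization. HOXD_176140473 was at 0.41 with median centring and at 0.39 in edgeR, and HOXC_54017603, at 0.00 in all libraries, at -0.0058 with a pseudocount of 5. With 1 library left out the ranges were -0.048 to 0.27 (HOXA_27181428), -0.12 to 0.30 (HOXA_27198256) and -0.23 to 0.19 (HOXC_54017603). The cause of these turns was not tested. The shallowest library, with 9 reads over all HOXD regions, limits what can be seen there.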

Other observations

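By its values over the 6 libraries the 27.1 kb HOXA region was most like 5 regions elsewhere, chosen by the distance of log2(CPM + 1). They were a region of 22408 bp at BMI1, the gene of a Polycomb protein of stem cells, with a mean of 1103 CPM, a region of 17833 bp at CDKN2C (1072 CPM), one of 30821 bp at SATB1 (1056 CPM), one of 14798 bp at CDKN1B (934 CPM) and one of 15867 bp at IRF2BP2 (757 CPM). CDKN2C and CDKN1B encode inhibitors of cyclin-dependent kinases. The distances were 0.23, 0.31, 0.32, 0.49 and 1.24. The measure reads mean strength more than any change with treatment.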
